A study of Mus musculus with 16 samples.

Results

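The genes of the unfolded protein response and the chaperones of the endoplasmic reticulum (ER) were examined in the mouse aorta. The set held 33 genes out of 18194 gene symbols on the array. Its members were the probe sets whose platform annotation gave exactly 1 of the 33 symbols, which came to 80 of 45101 probe sets. For 32 of the 33 genes at least 1 probe set passed the filter on low signal (a mean above 383, the median over all probe sets). Derl3 did not pass. The members fell into 11 ER chaperones and co-chaperones, 4 protein disulfide isomerases, 3 stress sensors, 7 transcription factors and stress response targets, 6 genes of ER-associated degradation and 2 subunits of the translocon.

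Whole aortas came from 16 ApoE-/- mice, which lack apolipoprotein E and develop atherosclerosis, with 1 Affymetrix array per mouse. At 18 weeks of age every mouse had eaten a high fat diet for 10 weeks, so no group had a normal diet or a working Apoe gene. Diabetic and non-diabetic mice were each split into a group fed RBX and a group not fed it, which made 4 groups of 4 mice. Diabetes was induced with streptozotocin (STZ), which kills pancreatic beta cells, at 6 weeks of age. RBX (ruboxistaurin) inhibits protein kinase C beta. It was mixed into the high fat diet from 8 weeks of age at a dose that the sources used here do not give. The design asks how diabetes and this inhibitor alter the atherosclerotic aorta. Each array is a separate mouse, so the spread between arrays includes that between animals.

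Proteins that are secreted or sit in membranes fold in the ER, helped by chaperones such as BiP (Hspa5), by lectin chaperones and by enzymes that form disulfide bonds. When unfolded proteins build up, the sensors IRE1, PERK and ATF6 start the unfolded protein response: IRE1 splices Xbp1 mRNA, ATF6 is cut to release a transcription factor, and PERK phosphorylates eIF2 alpha, which slows translation and raises ATF4. XBP1 and ATF6 switch on chaperones and degradation genes, while ATF4 drives amino acid genes and CHOP (Ddit3). In atherosclerotic arteries this response is known in macrophages, endothelial cells and smooth muscle cells of the plaque.

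The non-diabetic RBX arrays stood above all other arrays in the signal of a control RNA, and above both groups without RBX in the Actb ratio. The log2 signal of cre, a bacteriophage control RNA added to the hybridisation mix, ranged from 17.97 to 18.83 there and from 16.87 to 17.60 in the non-diabetic mice, with both diabetic groups between 17.27 and 17.75. The Actb ratio compares the 3' with the 5' end of the Actb transcript on the log2 scale and grows as RNA or its labelling is less complete. Its mean was 2.08 in non-diabetic mice on RBX against 1.04 in those without, and 1.71 against 1.34 in diabetic mice, and the 2 RBX groups overlapped (1.67 to 2.51 and 1.47 to 1.89). Of 16 exact two-sided permutation tests on such measures, the smallest p was 0.0286, the least that 4 against 4 arrays can give, and the smallest adjusted p was 0.0914. All 10 smooth muscle, 10 macrophage and 10 endothelial markers were measured among the genes that passed the filter. The summed smooth muscle signals were 474358 to 513111 in non-diabetic mice, 312689 to 491188 in non-diabetic RBX mice, 404776 to 487258 among diabetic mice and 504284 to 548946 among diabetic RBX mice. For macrophages they were 197226 to 298872, 275845 to 416133, 234924 to 328531 and 283822 to 291919 in the same order. For endothelium they were 42794 to 50163, 71941 to 101452, 50044 to 81686 and 60612 to 73689. Of 10 plasma and B cell markers, which would mark cells rich in ER, 2 (Jchain and Sdc1) passed the filter, and their sums overlapped in all 4 groups. In whole tissue, fewer cells of a type and less RNA per cell cannot be told apart.

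**Figure D1:**
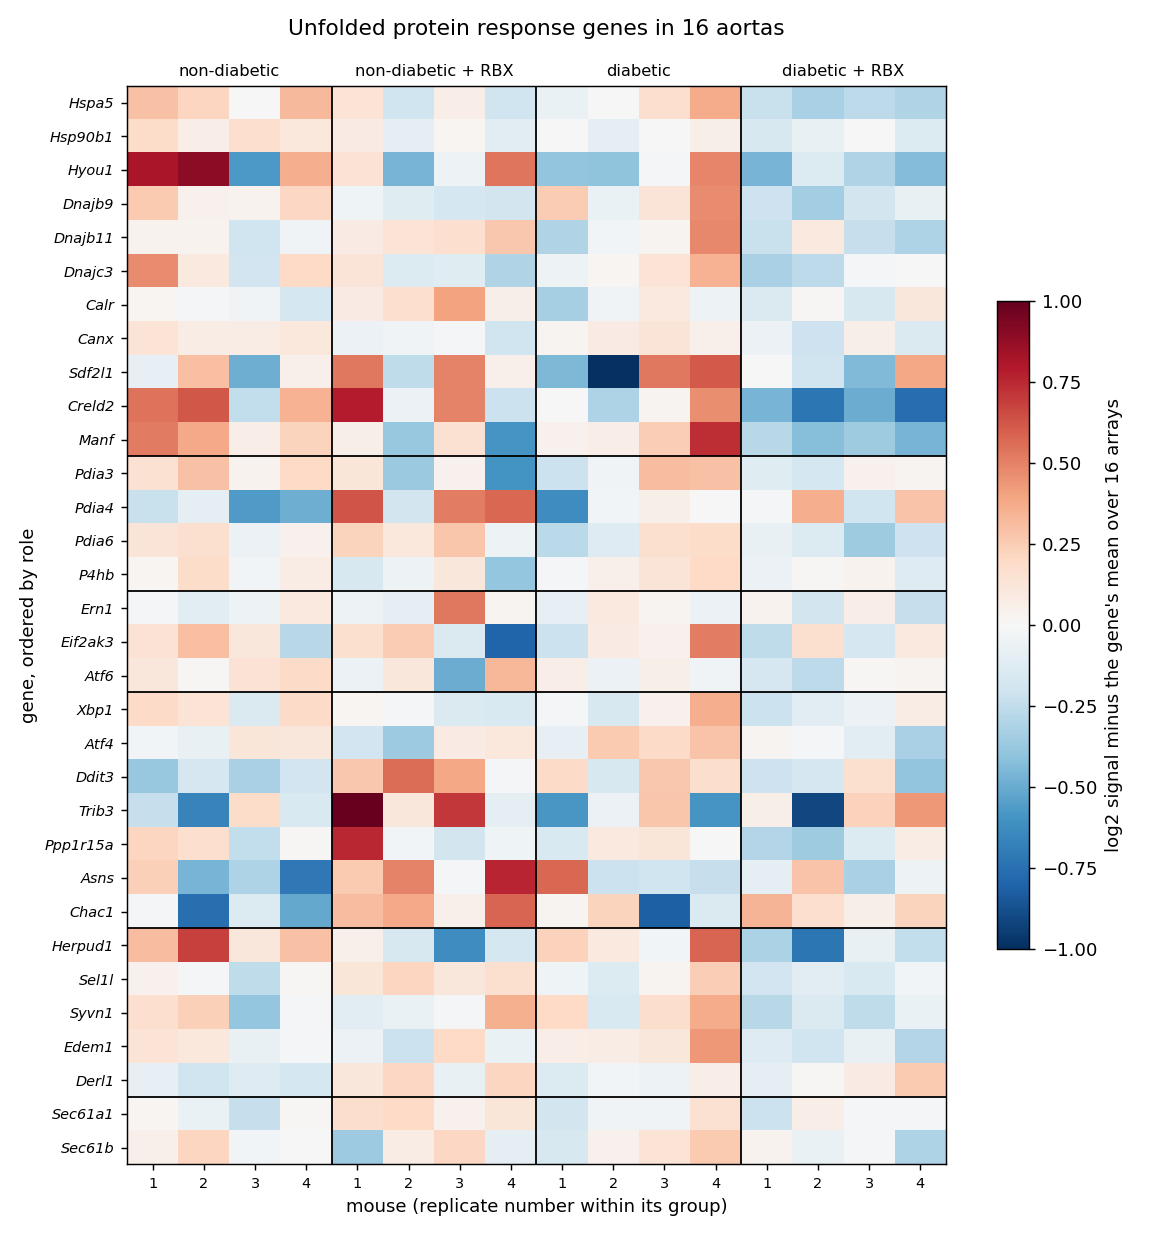
Each row is 1 of the 32 members that passed the filter, grouped by role, and each column 1 of the 16 mice. Colour gives the log2 signal minus the gene's mean over all 16 arrays, with values beyond the ends of the scale drawn in the end colours. Hspa5, Hyou1, Dnajb9, Creld2 and Manf are below their mean in all 4 diabetic RBX mice, and Ddit3, Asns, Chac1 and Pdia4 are above it in most non-diabetic RBX mice.

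In diabetic mice, 9 of 11 chaperones and 4 of 5 degradation genes had lower mean log2 signals with RBX than without it, and no member passed the test. Of the 32 members tested, 26 (81.2%) had a log2 difference below 0 between diabetic RBX and diabetic mice, against 53.3% of the 11037 genes tested. The median difference was -0.15 for members and -0.018 for all genes. In limma with Benjamini-Hochberg adjustment over all genes, 0 of 32 members passed an adjusted p under 0.05, where 0.0453% of all genes did. At an unadjusted p under 0.05 there were 9 members (28.1%), all lower: Hspa5, Manf, Creld2, Dnajb9, Canx, Atf4, Herpud1, Edem1 and Syvn1. The background at that threshold was 9.2% of all genes. For 6 members (18.8%) all 4 diabetic RBX mice were below all 4 diabetic mice, namely Hspa5, Manf, Creld2, Dnajb9, Herpud1 and Edem1, and the groups did not overlap for 6.89% of all genes in either direction. The smallest adjusted p was 0.206, for Manf. When the 4 non-diabetic RBX arrays were left out of the fit, an alternative chosen after seeing the data, Manf passed (adjusted p = 0.0494). The Actb ratio was higher in diabetic RBX than in diabetic mice by 0.37 on the log2 scale (exact permutation p = 0.0571, adjusted 0.131). With that ratio as a covariate the differences were -0.21 for Hspa5, -0.33 for Manf, -0.21 for Creld2 and -0.50 for Herpud1, and none passed. The same ratio for Gapdh was higher by 0.23 (exact permutation p = 0.0571, adjusted 0.131). The median signal per array was 434.2 to 463 in diabetic RBX and 413.5 to 419.2 in diabetic mice, without overlap (exact permutation p = 0.0286, adjusted 0.0914). The part of the Gapdh ratio and the median signal in the differences was not tested. The summed smooth muscle markers were also higher in all 4 diabetic RBX than in all 4 diabetic mice. Singly, 9 of 10 lay above 0 (median 0.21), 0 passed in limma, and the groups did not overlap for 1 (10%). Of 9 measured adventitial fibroblast markers 8 lay above 0 (median 0.29) and 0 passed. For 4 of them (44.4%, all genes 6.89%) the groups did not overlap, all higher with RBX. The part of these markers in the differences was not tested.

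In non-diabetic mice, RBX went with changes in both directions. Ddit3, Asns, Chac1, Pdia4 and Derl1 rose, and Manf and Herpud1 fell. These 7 of 32 members are 21.9%, below the 31.7% of all genes that passed in this comparison (16.5% rose and 15.1% fell), so the count says nothing particular about the members. At an unadjusted p under 0.05 there were 15 members (46.9%, all genes 42.8%), and 17 (53.1%) lay below 0, against 46.9% of all genes. The median difference was -0.069 for members and 0.032 for all genes. For 10 members (31.2%) the 2 groups did not overlap, against 27.5% of all genes. This comparison rests on the arrays with the raised control measures. The log2 cre signal, the Actb ratio and the median signal per array each separated the 2 groups without overlap, so their part and that of RBX cannot be told apart here. Covariate values for this comparison, here and below, extrapolate across that gap. A changed sign in them cannot be read as a reversed effect. With log2 cre as a covariate 0 members and 0% of all genes passed. With the Actb ratio 1.58% of all genes did, and 1 member, Creld2 (1.19, adjusted p = 0.0351), which had a difference of -0.064 without it. In this comparison 7 of 10 smooth muscle markers fell, 8 of 10 macrophage and 9 of 10 endothelial markers rose, as did 4 of 9 adventitial fibroblast, 2 of 4 white adipocyte and 1 of 6 brown adipocyte markers that were measured. Of the 2 measured plasma and B cell markers, Sdc1 rose (0.43, adjusted p = 0.0469) and Jchain gave -2.02, adjusted p = 0.234. The part of these markers in the members' values was not tested.

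The comparisons of diabetic with non-diabetic mice gave few calls among the members. Without RBX, 0 of 32 members passed in limma, against 0.652% of all genes, and 1 member (3.12%, all genes 15.2%) had an unadjusted p under 0.05 (Ddit3, 0.38, SE 0.14, adjusted p = 0.178). The groups did not overlap for Ddit3 and Hsp90b1 (6.25%, all genes 9.45%). The members' median was -0.0034, and 16 lay above 0 and 16 below, where 47.6% of all genes lay below. Also without RBX, all 10 macrophage and all 10 endothelial markers lay above 0 in diabetic mice (medians 0.44 and 0.56). Of these, 1 endothelial marker rose. Of 10 smooth muscle markers 8 lay below 0 (median -0.30) and 0 passed. The part of these markers in the members' values was not tested. With RBX in the diet of both groups, Creld2 fell in diabetic mice. That is 1 of 32 members (3.12%), against 7.1% of all genes. In this comparison 29 of 32 members (90.6%) were lower in diabetic RBX mice, against 55.5% of all genes, with medians of -0.18 and -0.041. At an unadjusted p under 0.05 there were 7 members (21.9%), all lower, against 24% of all genes. The groups did not overlap for 4 members, Hspa5, Creld2, Pdia6 and Sel1l (12.5%), and for 12.5% of all genes. In the same comparison 7 of 10 smooth muscle markers rose (median 0.83), and 9 of 10 macrophage, 8 of 10 endothelial and all 4 white adipocyte markers lay below 0 (medians -0.25, -0.41 and -0.81). Log2 cre was lower by 0.67 in diabetic RBX mice, without overlap (exact permutation p = 0.0286, adjusted 0.0914). With log2 cre as a covariate the members' median was -0.33, and the part of the markers was not tested. This comparison shares the non-diabetic RBX arrays with that on RBX in non-diabetic mice and the diabetic RBX arrays with that on RBX in diabetic mice, so the 3 are not independent views.

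The 2 RBX comparisons have no array in common, but in both the mean array measures were higher with RBX. In diabetic and non-diabetic mice in turn, the Actb ratio was higher by 0.37 and 1.04 and the Gapdh ratio by 0.23 and 0.18. Log2 cre was higher by 0.21 and 1.26, and the median signal per array by 31.4 and 89.5. The part of these shifts in the signs shared by the 2 comparisons was not tested. All 17 members that were lower with RBX in non-diabetic mice were lower in diabetic mice too, which is 53.1% of the 32 members, and 27.7% of all genes were lower in both. Another 6 members (18.8%, all genes 27.5%) were higher in both, and 9 (28.1%, all genes 44.7%) had opposite signs. Hspa5, Hsp90b1, Dnajb9, Dnajc3, Canx, Manf and Herpud1 were among those lower in both. With log2 cre as a covariate the difference in non-diabetic mice lay above 0 for Hspa5, Dnajb9, Dnajc3, Manf and Herpud1, and the members' median there was 0.30. With the Actb ratio it lay above 0 for Hspa5, Dnajc3 and Manf, with a median of 0.22. In the test of the difference between the 2 RBX effects (the interaction), 1 of 32 members passed, Ddit3, against 11.5% of all genes. At an unadjusted p under 0.05 there were 4 members (12.5%, all genes 27.9%), and 23 (71.9%) lay below 0, against 55% of all genes. In the interaction 7 of 10 smooth muscle markers rose and 5 of 10 macrophage and 5 of 10 endothelial markers fell, with all 20 of the latter below 0, and their part in the members' values was not tested.

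**Figure D2:**
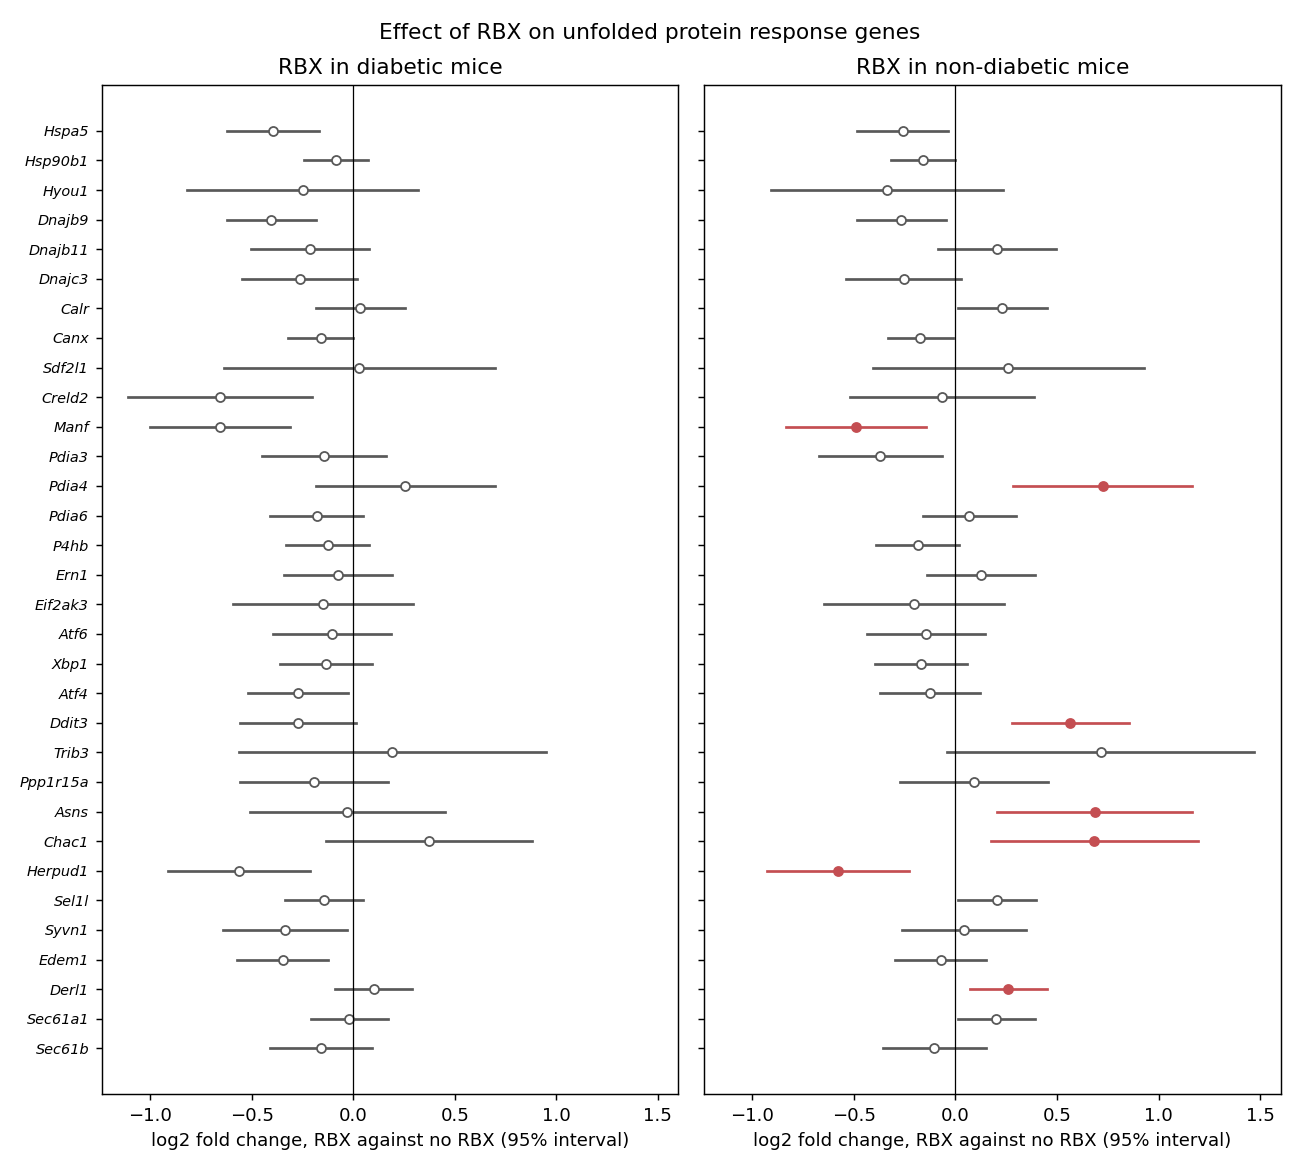
Points are the log2 differences of each member between RBX and no RBX, in diabetic and in non-diabetic mice, with 95% intervals from limma. Filled red points passed an adjusted p of 0.05 over all genes, which 0 members did in diabetic and 7 in non-diabetic mice. In diabetic mice 26 of the 32 points are below 0.

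Several members carry known response elements near their start, which are shown here because genes with the same element can be read side by side. Promoter windows of 300 bases, from 250 before to 50 after the annotated start, were taken from RefSeq on GRCm38.p6 for 28 of the 33 members. The windows were searched on both strands. The ER stress response element (ERSE), CCAAT and CCACG with 9 bases of any kind between them, is bound by NF-Y and by ATF6 or XBP1. It was found in 9 of the 28 windows (32.1%) and in 39 of 32851 windows overall (0.119%). The elements read as follows, with the fixed letters in capitals.
Hspa5: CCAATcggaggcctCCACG
Hsp90b1, first: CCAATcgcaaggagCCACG
Hsp90b1, second: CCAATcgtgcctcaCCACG
Dnajc3: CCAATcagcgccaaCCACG
Calr: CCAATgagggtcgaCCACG
Canx: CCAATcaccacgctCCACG
Creld2: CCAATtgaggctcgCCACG
Pdia6: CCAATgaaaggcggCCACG
Syvn1: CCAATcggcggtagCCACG
Derl3: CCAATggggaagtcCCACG
A second form, ERSE-II, ATTGG and CCACG with 1 base between them, was in 2 member windows and in 0.0365% of all windows.
Herpud1: ATTGGgCCACG
Dnajb11: ATTGGcCCACG
The element read by ATF4 and its C/EBP partners (CARE, TGATGNAA) was in 4 member windows (14.3%) and in 3.97% of all windows.
Asns: TGATGaAA
Chac1: TGATGcAA
Trib3: TGATGtAA
Herpud1: TGATGcAA
The letters TGACGTGG, the core of the XBP1 element, were in 0 member windows and in 0.676% of all windows. The Hspa5 element lay 65 bases before the start and that of Creld2 126 bases before it, in reverse orientation. The CARE match of Asns lay 23 bases before the start. A match describes the letters in these windows and is not a measured binding site, and most members were picked for a known part in this response.

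**Figure D3:**
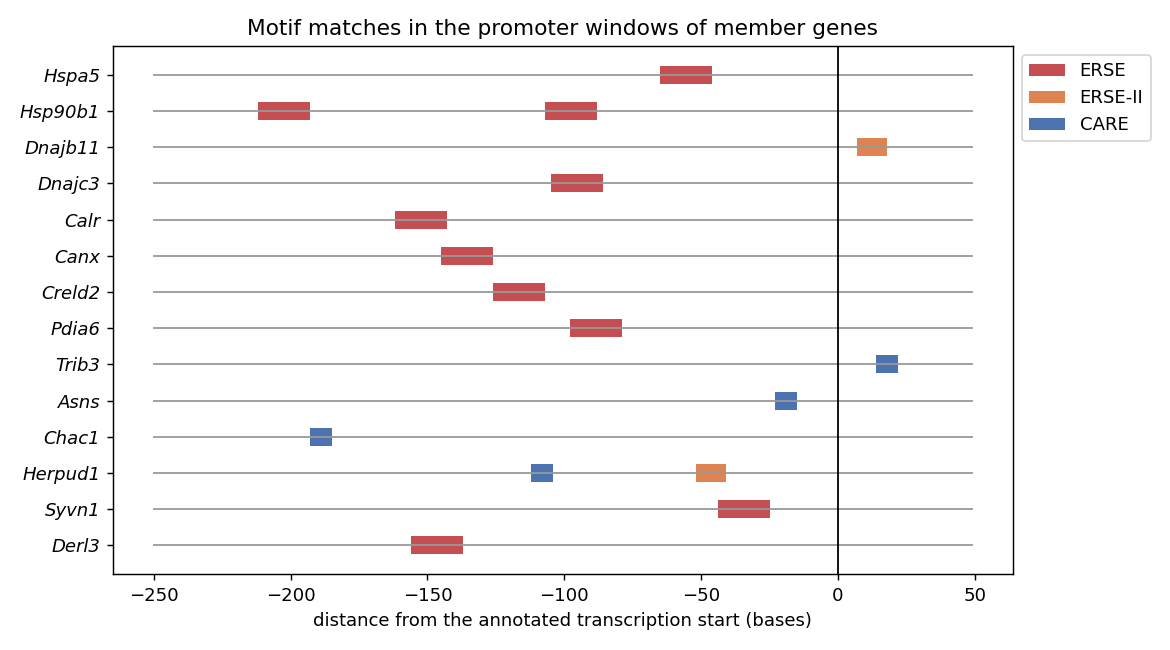
Each line is the 300-base window of a member with at least 1 match, and the marks give the position of each match relative to the annotated start at 0. ERSE matches begin between 212 and 44 bases before the start in the 9 windows that hold one.

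By element, the members gave the following differences. Of the 10 tested members with ERSE or ERSE-II, 9 were lower with RBX in diabetic mice (median -0.24), as were 13 of the 17 members whose windows held neither (median -0.14). In non-diabetic mice 6 of the 10 were lower with RBX (median -0.11), and 8 of the 17 (median 0.090). Of the 4 members with CARE, 3 were higher with RBX in non-diabetic mice and 1, Herpud1, fell. No test was made of these groups, which hold few genes.

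Hspa5 encodes BiP, the main chaperone of the ER lumen, which also holds the stress sensors inactive. Its promoter window is shown with its ERSE in capitals.
Hspa5, chr2:34771840-34772139, plus strand: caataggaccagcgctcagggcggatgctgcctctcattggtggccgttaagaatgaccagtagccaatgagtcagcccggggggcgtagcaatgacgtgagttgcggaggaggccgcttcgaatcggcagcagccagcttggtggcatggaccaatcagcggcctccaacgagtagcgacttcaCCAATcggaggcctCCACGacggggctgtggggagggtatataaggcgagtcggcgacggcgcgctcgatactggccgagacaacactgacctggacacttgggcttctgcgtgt
Its signals were 63028, 59917, 51699 and 64584 in non-diabetic mice, 56563, 44873, 53776 and 44906 in non-diabetic RBX mice, 49178, 51296, 57865 and 66444 among diabetic mice and 44189, 41163, 42856 and 41851 among diabetic RBX mice. The 4 diabetic RBX mice were the lowest of the 16, below every other mouse, and close to each other. The log2 difference from diabetic mice was -0.39 (SE 0.11, adjusted p = 0.234), with a 95% interval of -0.62 to -0.17, and that from non-diabetic RBX mice -0.23 (SE 0.11, adjusted p = 0.206). In non-diabetic mice RBX gave -0.26 (SE 0.11, adjusted p = 0.0732). With log2 cre as a covariate the value was 0.18 and with the Actb ratio 0.25, both extrapolated between groups that these measures separate. A second Hspa5 probe set moved the same way, by -0.57 (unadjusted p = 0.000407) in diabetic and -0.48 (unadjusted p = 0.00206) in non-diabetic mice, and another did not, with 0.053 (unadjusted p = 0.711) and 0.11 (unadjusted p = 0.444).

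Manf encodes a small secreted protein of the ER that binds BiP and protects cells from ER stress. Its signals were 13402, 12186, 9766 and 10920.1 in non-diabetic mice, 9727, 7189, 10395 and 6201 in non-diabetic RBX mice, 9609.8, 9797, 11091 and 15599.7 among diabetic mice and 7703, 6954, 7315 and 6775 among diabetic RBX mice. All 4 diabetic RBX mice were below all diabetic and all non-diabetic mice. RBX gave -0.65 (SE 0.16, adjusted p = 0.206) in diabetic mice. In non-diabetic mice Manf fell by 0.49 on the log2 scale (SE 0.16, adjusted p = 0.0303), although mouse 3 of the RBX group, at 10395, lay within the non-diabetic range. Manf missed the threshold when non-diabetic mouse 1, non-diabetic mouse 2, non-diabetic RBX mouse 2 or non-diabetic RBX mouse 4 was left out (adjusted p = 0.0729 to 0.107). With log2 cre or the Actb ratio as a covariate the direction in non-diabetic mice turned, to 0.30 (adjusted p = 0.699) and 0.43 (adjusted p = 0.274).

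Creld2, an ER-resident protein with disulfide isomerase activity that is induced with BiP, gave the only call between diabetic and non-diabetic mice on RBX. Its window carries 1 ERSE in reverse orientation to the gene, so the capitals below are the reverse complement of the motif.
Creld2, chr15:88819396-88819695, plus strand: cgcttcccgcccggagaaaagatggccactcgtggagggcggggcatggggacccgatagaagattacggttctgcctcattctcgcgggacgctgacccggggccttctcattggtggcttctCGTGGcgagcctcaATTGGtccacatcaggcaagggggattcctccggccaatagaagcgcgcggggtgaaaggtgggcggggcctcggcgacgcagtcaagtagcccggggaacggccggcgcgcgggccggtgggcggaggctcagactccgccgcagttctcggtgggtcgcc
Its signals were 5764, 6109, 3332 and 5030.4 in non-diabetic mice, 6821, 3803, 5576 and 3413 in non-diabetic RBX mice, 3945, 3195, 4039 and 5480 among diabetic mice and 2866, 2404, 2813 and 2339 among diabetic RBX mice. All 4 diabetic RBX mice were below the other 12. Creld2 fell by 0.86 on the log2 scale in diabetic RBX against non-diabetic RBX mice (SE 0.22, adjusted p = 0.0215). Against diabetic mice the difference was -0.66 (SE 0.22, adjusted p = 0.364). Creld2 missed the threshold when non-diabetic RBX mouse 1 or diabetic RBX mouse 2 was left out (adjusted p = 0.0539 to 0.0569). The non-diabetic RBX group was wide, from 3413 to 6821.

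**Figure D4:**
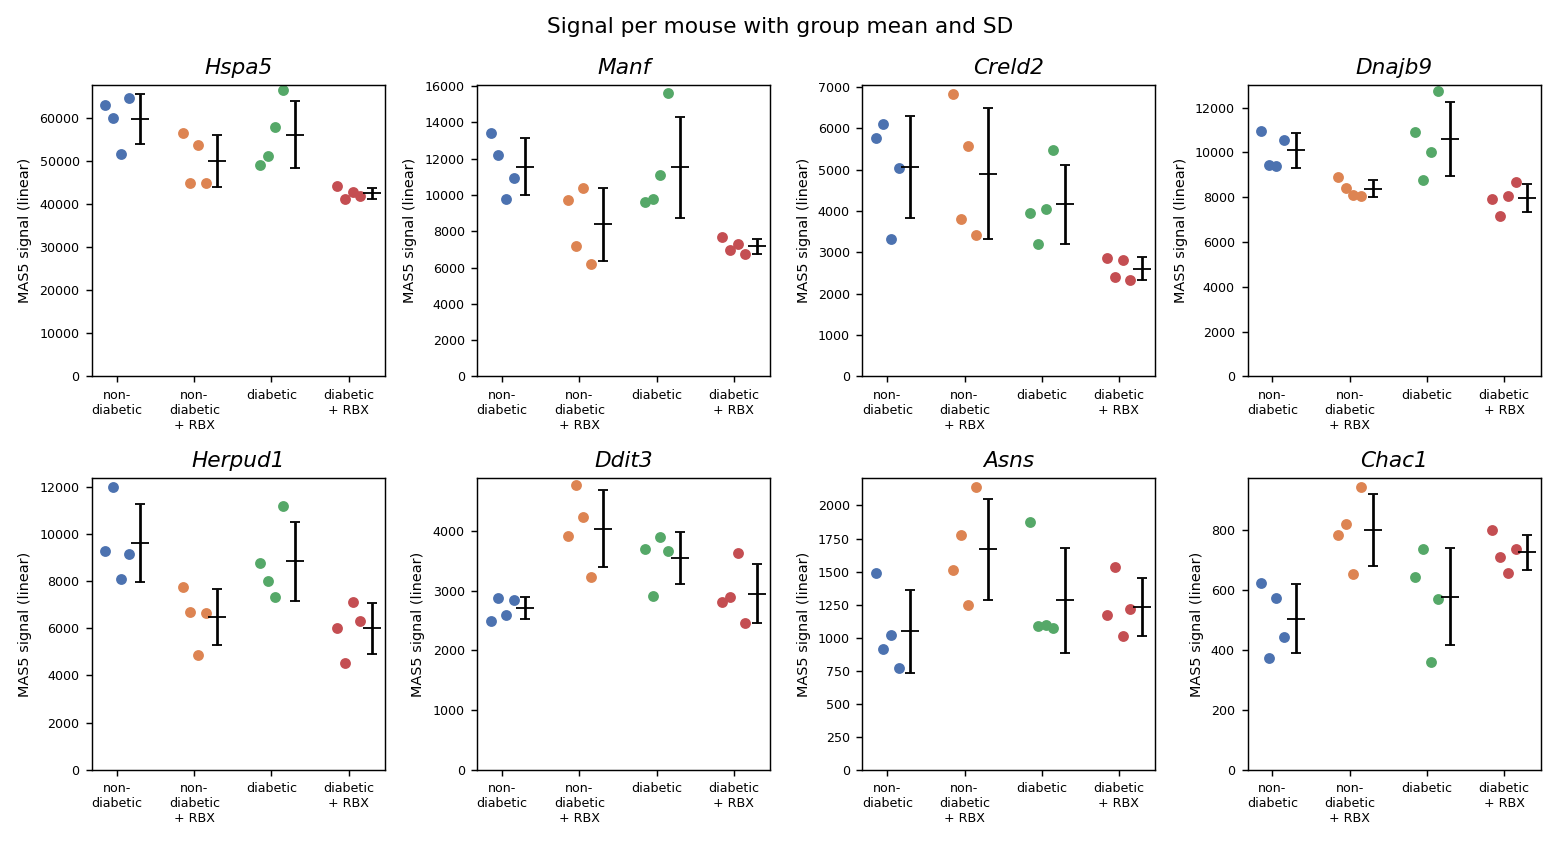
Points are the linear signals of 8 members in each of the 16 mice, by group, with the group mean and SD beside them. For Hspa5 and Creld2 the 4 diabetic RBX mice are below all other mice, and for Ddit3 the 4 non-diabetic RBX mice are above all 4 non-diabetic mice.

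Among the J-domain co-chaperones, which drive the ATPase cycle of BiP, Dnajb9 (ERdj4) read 10969.6, 9450, 9387 and 10545 in non-diabetic mice, 8882, 8429, 8094 and 8063 in non-diabetic RBX mice, 10896, 8759, 10005 and 12730.1 among diabetic mice and 7919.6, 7176, 8042 and 8678 among diabetic RBX mice. All RBX mice, diabetic or not, were below all mice without RBX of the same diabetes state. The differences were -0.40 (SE 0.10, adjusted p = 0.225) in diabetic and -0.27 (SE 0.10, adjusted p = 0.0581) in non-diabetic mice, neither of which passed, and the latter turned to 0.12 with log2 cre as a covariate. Dnajb11 (ERdj3) read 3056, 3065, 2610.4 and 2922 in non-diabetic mice, 3174, 3289, 3356 and 3598 in non-diabetic RBX mice, 2425, 2929, 3051 and 4169 among diabetic mice and 2561, 3199, 2543 and 2414 among diabetic RBX mice. It was highest in non-diabetic RBX mice as a group, while diabetic mouse 4 had the single highest value, and RBX gave 0.20 (SE 0.14, adjusted p = 0.273) in non-diabetic and -0.21 (SE 0.14, adjusted p = 0.668) in diabetic mice. Dnajc3 (p58IPK) ranged from 5382 to 9376 over the 16 mice, with differences of -0.26 and -0.25 with RBX in diabetic and non-diabetic mice. Its other probe sets ranged from -1.13 (unadjusted p = 0.00220) to -0.040 (unadjusted p = 0.761) in diabetic mice.

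The other chaperones did not pass in any comparison. Hsp90b1 (GRP94) ranged from 33464 to 42648, a narrow spread, and its 4 diabetic mice without RBX lay below the 4 non-diabetic mice (-0.15, SE 0.075, adjusted p = 0.372). Its other probe set gave 0.17 there (unadjusted p = 0.422), in the opposite direction. The lectin chaperone Canx ranged from 22538 to 28517 and was lower with RBX in diabetic (-0.16) and non-diabetic mice (-0.17, adjusted p = 0.0884). The other lectin chaperone, Calr, ranged from 42641 to 71190.1 and was higher with RBX in non-diabetic mice (0.23, adjusted p = 0.0973). Hyou1 (GRP170), an exchange factor of BiP, ranged from 2325 to 6454, with non-diabetic mice both at the top and at the bottom, and diabetes gave no call (-0.46, SE 0.27, adjusted p = 0.448). Sdf2l1, a partner of the J-domain proteins, ranged from 429 to 1356 and gave 0.26 (SE 0.32, adjusted p = 0.565) with RBX in non-diabetic mice.

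Of the 4 protein disulfide isomerases, Pdia4 rose with RBX in non-diabetic mice. Its signals were 903, 992, 714 and 753 in non-diabetic mice, 1634, 929, 1507 and 1572 in non-diabetic RBX mice, 686, 1038, 1098 and 1059 among diabetic mice and 1045, 1358, 923 and 1286 among diabetic RBX mice. Non-diabetic RBX mouse 2, at 929, fell inside the non-diabetic range, and the other 3 were above it. The difference was 0.72 (SE 0.21, adjusted p = 0.0139), and in diabetic mice 0.26 (SE 0.21, adjusted p = 0.753). Pdia6 read 11307, 11605, 9971 and 10677 in non-diabetic mice, 12075, 11134, 12542 and 10002 in non-diabetic RBX mice, 8583, 9504, 11583 and 11771 among diabetic mice and 9849.6, 9447, 8093 and 9003 among diabetic RBX mice. Every diabetic RBX mouse was below every non-diabetic RBX mouse (-0.33, SE 0.11, adjusted p = 0.0768), without passing. Pdia3 (ERp57), which works with the lectin chaperones, ranged from 13740.3 to 25723 and gave -0.37 (SE 0.14, adjusted p = 0.0592) with RBX in non-diabetic mice. The value was 0.22 with log2 cre and 0.41 with the Actb ratio as a covariate. Its other probe set above the filter gave 0.015 there (unadjusted p = 0.952). P4hb (PDI), also a subunit of collagen prolyl hydroxylase, ranged from 27163 to 40925, with differences between -0.18 and 0.088 over the 4 comparisons.

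The 3 sensors showed no call. Ern1 (IRE1 alpha) had the smallest p of the 3 and read 3078, 2873, 3007 and 3339 in non-diabetic mice, 3014, 2908, 4496 and 3175 in non-diabetic RBX mice, 2939.9, 3327, 3171 and 2998 among diabetic mice and 3185, 2744, 3267 and 2654 among diabetic RBX mice. Apart from non-diabetic RBX mouse 3, at 4496, the other 15 values lay between 2654 and 3339. The difference between diabetic RBX and non-diabetic RBX mice was -0.18 (SE 0.13, adjusted p = 0.398). Eif2ak3 (PERK) ranged from 833 to 2068 and Atf6 from 1962 to 3488. Over the 4 comparisons of 2 groups the log2 differences of the 3 sensors lay between -0.20 and 0.12. Transcript levels do not show whether a sensor was active, since all 3 are switched on as proteins.

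Ddit3 encodes CHOP, the transcription factor linked to cell death in prolonged ER stress. It read 2503, 2886, 2597 and 2847 in non-diabetic mice, 3919, 4775, 4240.2 and 3232 in non-diabetic RBX mice, 3711, 2915, 3912 and 3667 among diabetic mice and 2819, 2896, 3632 and 2467 among diabetic RBX mice. All non-diabetic mice were below all diabetic and all non-diabetic RBX mice, and the diabetic RBX mice overlapped both diabetic and non-diabetic mice. Ddit3 rose with RBX in non-diabetic mice, 0.57 (SE 0.14, adjusted p = 0.00452). In diabetic mice RBX gave -0.27 (SE 0.14, adjusted p = 0.556), and the interaction of RBX with diabetes passed, -0.84 (SE 0.19, adjusted p = 0.0102). Diabetes gave 0.38 without RBX and -0.45 (SE 0.14, adjusted p = 0.0526) with it. With log2 cre as a covariate the interaction was -1.19 and did not pass (adjusted p = 0.111). Beside it stand the rise of 7 of 10 smooth muscle markers and the fall of 5 of 10 macrophage and 5 of 10 endothelial markers in the same test.

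Asns and Chac1 are ATF4 targets: Asns makes asparagine, and Chac1 degrades glutathione. Their windows are shown with the CARE match in capitals, which in Chac1 is in reverse orientation and so appears as its reverse complement.
Asns, chr6:7693160-7693459, minus strand: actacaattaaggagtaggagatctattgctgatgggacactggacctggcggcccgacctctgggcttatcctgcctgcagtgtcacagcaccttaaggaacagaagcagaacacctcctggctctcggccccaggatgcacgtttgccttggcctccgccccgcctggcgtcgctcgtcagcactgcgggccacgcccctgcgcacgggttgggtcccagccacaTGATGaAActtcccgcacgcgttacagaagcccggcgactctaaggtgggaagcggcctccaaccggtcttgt
Chac1, chr2:119350992-119351291, plus strand: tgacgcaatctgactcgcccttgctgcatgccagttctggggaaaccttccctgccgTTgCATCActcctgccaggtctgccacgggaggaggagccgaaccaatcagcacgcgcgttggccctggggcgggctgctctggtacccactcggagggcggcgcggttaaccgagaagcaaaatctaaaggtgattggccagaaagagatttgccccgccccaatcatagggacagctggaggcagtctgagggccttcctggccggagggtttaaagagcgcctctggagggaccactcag
Asns read 1489, 913, 1019.7 and 768 in non-diabetic mice, 1512, 1776, 1247 and 2137 in non-diabetic RBX mice, 1877, 1088, 1095 and 1071 among diabetic mice and 1175, 1538, 1009 and 1213 among diabetic RBX mice. Diabetic mouse 1 was the highest of its group by a wide gap, and non-diabetic mouse 1 lay within the RBX range. Asns rose with RBX in non-diabetic mice, 0.69 (SE 0.23, adjusted p = 0.0287), and its other probe set gave 0.96 (unadjusted p = 0.000287). Chac1 read 625, 375, 573 and 443 in non-diabetic mice, 783, 823, 653 and 945 in non-diabetic RBX mice, 644, 738, 359 and 572 among diabetic mice and 801, 711, 659 and 737 among diabetic RBX mice. All 4 non-diabetic RBX mice were above all 4 non-diabetic mice, and Chac1 rose by 0.68 (SE 0.24, adjusted p = 0.0379). In diabetic mice RBX gave -0.029 (SE 0.23, adjusted p = 0.982) for Asns and 0.38 (SE 0.24, adjusted p = 0.666) for Chac1. Asns missed the threshold when non-diabetic mouse 2, non-diabetic mouse 4, non-diabetic RBX mouse 2 or non-diabetic RBX mouse 4 was left out (adjusted p = 0.0617 to 0.103). Chac1 missed the threshold when non-diabetic mouse 2, non-diabetic mouse 4, non-diabetic RBX mouse 1, non-diabetic RBX mouse 2 or non-diabetic RBX mouse 4 was left out (adjusted p = 0.0590 to 0.120). With the Actb ratio as a covariate the differences in non-diabetic mice were -0.095 for Asns and 0.025 for Chac1.

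The other 4 genes of this role did not pass. Atf4 itself ranged from 6331 to 9924 and gave -0.27 (SE 0.12, adjusted p = 0.488) with RBX in diabetic and -0.13 (SE 0.12, adjusted p = 0.436) in non-diabetic mice. Its other probe set above the filter gave -0.21 (unadjusted p = 0.143) in diabetic and -0.38 (unadjusted p = 0.0111) in non-diabetic mice. ATF4 is controlled largely at translation, which these arrays do not measure. Trib3, a pseudokinase induced by ATF4 and CHOP, ranged from 241 to 1097 with 0.72 (SE 0.36, adjusted p = 0.138) with RBX in non-diabetic mice. Its other probe set, of nearly the same mean signal, gave 1.39 there (unadjusted p = 0.0274). For diabetes without RBX that probe set gave 1.27 (unadjusted p = 0.0429) where the one used gave -0.022. For the interaction the values were -2.09 (unadjusted p = 0.0202) and -0.52. Ppp1r15a (GADD34), which reverses eIF2 alpha phosphorylation, ranged from 1703 to 3676, its highest value in non-diabetic RBX mouse 1. Xbp1 ranged from 20128 to 30041 and its largest difference was -0.17 (SE 0.11, adjusted p = 0.249) with RBX in non-diabetic mice. Its other probe sets disagreed there, from -0.44 (unadjusted p = 0.00372) to 0.61 (unadjusted p = 0.00916). These values do not separate spliced from unspliced Xbp1 mRNA.

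In ER-associated degradation, which returns misfolded proteins to the cytosol for the proteasome, Herpud1 was lower with RBX in both diabetes states. Herpud1 helps to assemble the degradation complex, and its window holds an ERSE-II and a CARE match, both in capitals, the latter as its reverse complement.
Herpud1, chr8:94386179-94386478, plus strand: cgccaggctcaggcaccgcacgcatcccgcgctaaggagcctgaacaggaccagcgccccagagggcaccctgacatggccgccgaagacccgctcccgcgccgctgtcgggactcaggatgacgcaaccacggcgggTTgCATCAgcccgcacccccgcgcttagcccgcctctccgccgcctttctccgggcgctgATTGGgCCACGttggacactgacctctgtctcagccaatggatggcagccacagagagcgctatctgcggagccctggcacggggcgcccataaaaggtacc
It read 9262, 11996, 8080.2 and 9168 in non-diabetic mice, 7742, 6685, 4857 and 6630.4 in non-diabetic RBX mice, 8792, 8017, 7339.9 and 11204 among diabetic mice and 6026, 4526, 7113 and 6303 among diabetic RBX mice. In each diabetes state all 4 RBX mice were below all 4 mice without RBX. Herpud1 fell in non-diabetic mice, -0.58 (SE 0.17, adjusted p = 0.0138), and gave -0.56 (SE 0.17, adjusted p = 0.281) in diabetic mice. The interaction was 0.015 with a 95% interval of -0.48 to 0.51. Its other probe set gave -0.79 (unadjusted p = 0.000945) in non-diabetic and -0.39 (unadjusted p = 0.0749) in diabetic mice. Herpud1 missed the threshold without non-diabetic mouse 2 (adjusted p = 0.0556). With log2 cre as a covariate the direction in non-diabetic mice turned, to 0.085 (adjusted p = 0.946), and with the Actb ratio the difference was -0.41 (adjusted p = 0.539).

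Edem1, a lectin that extracts misfolded glycoproteins from the folding cycle, read 5971, 5834, 5171 and 5354 in non-diabetic mice, 5225, 4673, 6231 and 5182 in non-diabetic RBX mice, 5701, 5704, 5887 and 7339 among diabetic mice and 4976, 4735, 5161 and 4423 among diabetic RBX mice. All diabetic RBX mice were below all diabetic mice (-0.35, SE 0.11, adjusted p = 0.307), and its other probe set gave -0.088 (unadjusted p = 0.504). Derl1, a channel component of the degradation complex, read 15468, 14247, 14953 and 14489 in non-diabetic mice, 17659, 18862, 15550.3 and 19005 in non-diabetic RBX mice, 14850.4, 15997, 15797 and 17115 among diabetic mice and 15289, 16448, 17326 and 19539.5 among diabetic RBX mice. All non-diabetic RBX mice were above all non-diabetic mice, and Derl1 rose, 0.26 (SE 0.090, adjusted p = 0.0334). The call holds for the probe set used, while another gave -0.25 (unadjusted p = 0.0360), in the opposite direction, and the mean over the probe sets was -0.010. Derl1 missed the threshold when non-diabetic mouse 2, non-diabetic mouse 4, non-diabetic RBX mouse 1, non-diabetic RBX mouse 2 or non-diabetic RBX mouse 4 was left out (adjusted p = 0.0520 to 0.0851).

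Sel1l and Syvn1 (HRD1) form the core ubiquitin ligase of the pathway. Sel1l ranged from 8369.5 to 11817 and every diabetic RBX mouse was below every non-diabetic RBX mouse (-0.27, SE 0.092, adjusted p = 0.0804). This holds for the probe set used, while its others disagreed, from -0.31 (unadjusted p = 0.0339) to 0.20 (unadjusted p = 0.466). With RBX in non-diabetic mice the probe set used gave 0.21 and another -0.45 (unadjusted p = 0.0144). Syvn1 ranged from 2285 to 3873 with -0.34 (SE 0.15, adjusted p = 0.487) for RBX in diabetic mice. Derl3, a relative of Derl1, did not pass the filter. It ranged from 68.6 to 916 over the 16 mice, with 4 values above the filter signal of 383, and without the filter its smallest adjusted p over the 4 comparisons of 2 groups was 0.424.

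The translocon passes new proteins into the ER. Its pore subunit Sec61a1 read 18809.9, 17776, 15867 and 18754 in non-diabetic mice, 20963, 21332, 19169 and 20280.4 in non-diabetic RBX mice, 16419, 18165, 18137 and 20637 among diabetic mice and 15993, 19505, 18467 and 18440 among diabetic RBX mice. All non-diabetic RBX mice were above all non-diabetic mice (0.20, SE 0.090, adjusted p = 0.0959), without passing. Its 5 other probe sets disagreed, from 0.75 (unadjusted p = 0.000218) to -0.42 (unadjusted p = 0.0551). Sec61b ranged from 12200.4 to 18856 with -0.10 (SE 0.12, adjusted p = 0.539) in the same comparison.

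Genes of the same pathways outside the 33 members were counted from 5 wider lists. With RBX in diabetic mice 0 of their 106 measured genes passed in limma, and 23 had an unadjusted p under 0.05, at a background of 9.2%. The lists differed in direction. Of other degradation genes 14 of 18 (77.8%) were lower, and of other folding genes 14 of 22 (63.6%), against 53.3% of all genes. Of other sensors and effectors 6 of 10 (60%) were lower. In the integrated stress response, the arm that runs through ATF4, 12 of 30 (40%) were lower, with a median of 0.026. Genes for entry into the ER and N-glycosylation were lower in 24 of 26 cases (92.3%), with a median of -0.15 against -0.018 for all genes. Among these 26 the smallest p was that of Ostc, a subunit of the oligosaccharyltransferase (-0.39, adjusted p = 0.353). In non-diabetic mice, where 31.7% of all genes passed, RBX went with 0 rises and 9 falls among these 26 genes (34.6%). The calls in this comparison rest on the arrays with the raised control measures. Spcs1, a subunit of the signal peptidase, gave -0.66 (adjusted p = 0.000104) and Ostc -0.67 (adjusted p = 0.000735). Of 22 other folding genes 2 rose and 8 fell (45.5% passed), with Kdelr3, a receptor that returns ER proteins from the Golgi, at -0.90 (adjusted p = 0.000168) and Ppib, a prolyl isomerase of collagen folding, at 0.50 (adjusted p = 0.000958). Of 18 other degradation genes 3 rose and 6 fell (50% passed), among them Edem3 at -0.67 (adjusted p = 1.91e-05) and Selenok at -0.91 (adjusted p = 9.00e-05). Of the 30 other genes of the integrated stress response 6 rose and 1 fell (23.3% passed, below the share of all genes). The transporter subunit Slc3a2 rose (0.48, adjusted p = 0.00419), as did the tRNA synthetase gene Wars (0.58, adjusted p = 0.00501), while Nupr1 fell (-0.57, adjusted p = 0.000860). Of 10 other sensors and effectors 1 rose (10%, also below the share of all genes), Creb3l1 (0.43, adjusted p = 0.0429).

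A list of heat shock chaperones and co-chaperones, which also names heat shock factor 1 (Hsf1) itself, was set beside the members. It was written mainly for the cytosol, and 2 of its genes, Hspd1 and Hspe1, belong to mitochondria. Of this list 18 genes were measured. With RBX in diabetic mice 4 of 18 fell and 0 rose, where 0.0453% of all genes passed. Hspa1b had the smallest p, at -1.60 (adjusted p = 0.000283), with a list median of -0.31 against -0.15 for the members. In non-diabetic mice 12 of 18 fell (66.7%, all genes 15.1%), with a median of -0.56 against -0.069. These calls rest on the arrays with the raised control measures, and with log2 cre as a covariate no gene passed in this comparison. For diabetes without RBX 2 of the 18 rose and 1 fell (16.7%, all genes 0.652%). Among them Hspa1b gave 0.92 (adjusted p = 0.0202) and Cryab -0.56 (adjusted p = 0.0319). The difference between the lists was not tested.

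Members also varied between mice of the same group. Each gene's log2 signal was set against that of Hspa5 after subtracting group means, over 16 arrays, for 31 members. The other genes on the array were not set against Hspa5, so no share over all genes stands beside the counts below. Over all 496 pairs of members the median r was 0.22. In 27 of the 31 relations the correlation was above 0, and 5 passed Benjamini-Hochberg adjustment: Manf with r = 0.89 (permutation p = 0.00149, adjusted 0.0268), Creld2 with r = 0.87 (permutation p = 0.00259, adjusted 0.0268), Pdia3 with r = 0.82 (permutation p = 0.00746, adjusted 0.0463), Pdia6 with r = 0.77 (permutation p = 0.00742, adjusted 0.0463) and Dnajc3 with r = 0.74 (permutation p = 0.00255, adjusted 0.0268). Spearman's rho was 0.87 for Manf (permutation p = 0.00199), 0.84 for Creld2 (0.00398), 0.80 for Pdia3 (0.0103), 0.71 for Pdia6 (0.0127) and 0.72 for Dnajc3 (0.00574), and 0 of 31 passed adjustment on rho, with a smallest adjusted p of 0.0593. Without non-diabetic mouse 3 and diabetic mouse 4, the 2 arrays farthest from the median of Hspa5, r was 0.85, 0.82, 0.84, 0.70 and 0.61 in the same order. Asns (r = -0.49, permutation p = 0.114, adjusted 0.210) and Chac1 (r = -0.40, permutation p = 0.261, adjusted 0.386) were at the other end. The Actb ratio varied between mice of a group too, and Hspa5 went with the Actb ratio at r = -0.82 (permutation p = 0.00210, adjusted 0.00420; rho = -0.82, permutation p = 0.00277; r = -0.82 without the same 2 arrays). With log2 cre r was -0.63 (permutation p = 0.0434). The part of the Actb ratio in these relations was not tested.

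**Figure D5:**
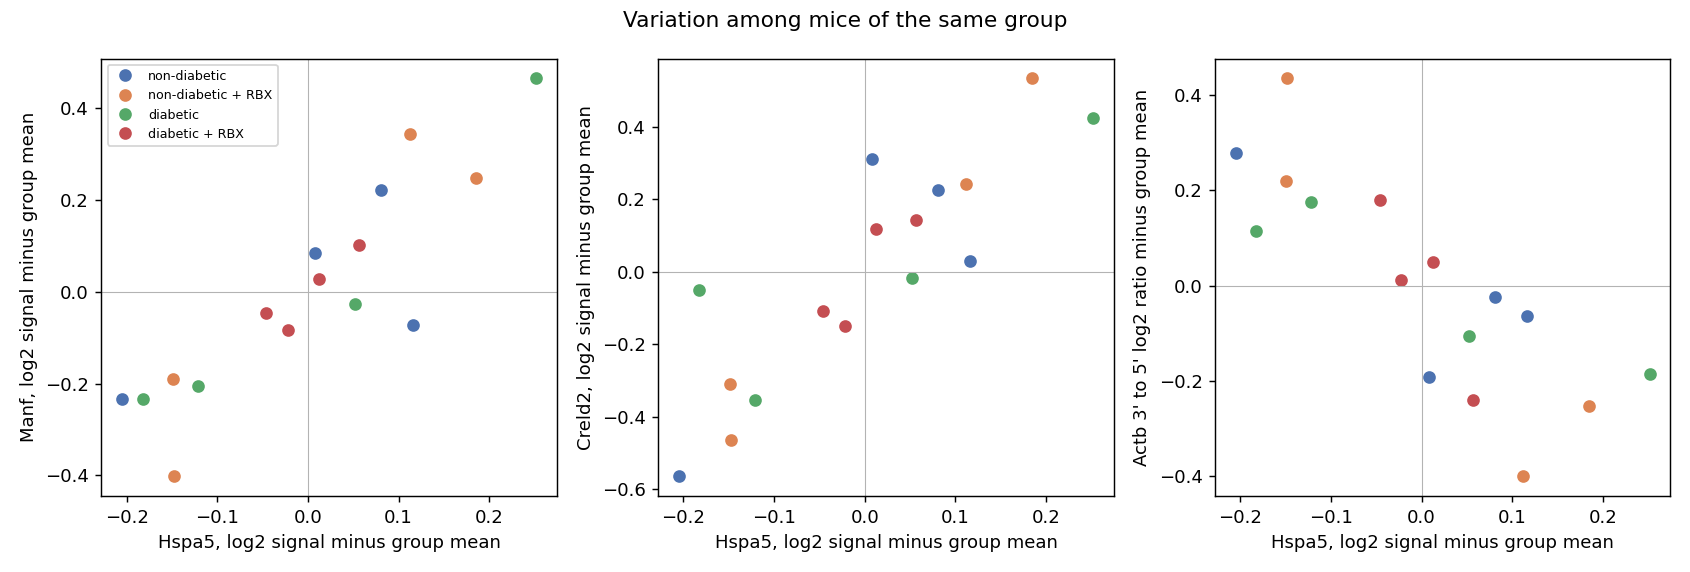
The scatter plots set log2 deviations from the group mean of Hspa5 (x axis) against those of other measures (y axis), 1 point per mouse. The correlation is 0.89 for Manf, 0.87 for Creld2 and -0.82 for the log2 Actb 3' to 5' ratio.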

How the data were processed

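Each array was hybridised with biotin-labelled cRNA made from 2 ug of Trizol-extracted total RNA of 1 whole aorta, per the labels. The deposited values are intensity on a linear scale, made by the authors with MAS5 per the submitters' processing notes (version not given in the sources used here), and every array has a mean of 1500.01 after 2% of the values at each end are left out. Such scaling sets each gene against the average of its array, and no detection calls were used, so the precision is limited by 4 arrays per group. Gene names came from GEO's platform annotation, in which 34958 of 45101 probe sets carried a single symbol, while 932 with several symbols and 9211 with none were left unnamed.

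Signals were log2-transformed as deposited, without an offset. Probe sets with a mean log2 above the median of all (a signal of 383) were kept, and each gene was read from its brightest such probe set, leaving 11037 genes. Of the members, 23 had more than 1 probe set. Besides those used, 36 probe sets of 19 members passed the filter. Of these 36, 27 had the sign of the one used for RBX in diabetic and 21 for RBX in non-diabetic mice. The counts were 21 for diabetes without RBX, 24 for diabetes with RBX and 19 for the interaction. All 16 arrays entered 1 linear model (limma 3.58.1, R 4.3.3) with a mean per group, an intensity trend, and 12 residual plus 6.2 prior degrees of freedom. Two-sided p-values of each of the 5 comparisons were adjusted over its 11037 genes (Benjamini-Hochberg). Members were said to rise or fall at an adjusted p under 0.05, and differences are log2 fold changes with their SE. The fit was first tested on simulated data. Correlations used log2 values minus group means, with 100000 permutations within groups (scipy 1.17.1, numpy 2.4.6, pandas 2.3.3), and figures matplotlib 3.10.9.

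Values on every array are given, within each role, for up to 5 members with the smallest p and for all that passed, and up to 3 genes of the smallest p are named from each wider list. The members and lists were chosen with earlier results of these data known. Replicate numbers were taken from the titles, and no label says that equal numbers share an animal or batch. Deviations from the group means of equally numbered arrays correlated between -0.14 and 0.11, so the arrays were not paired. Alternatives covered the scaling, the filter, an offset of 30.5 before log2, the choice of probe sets, the variance model, array weights, a replicate block, log2 cre or the Actb ratio as a covariate, and each array left out in turn.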

Additional observations from a re-analysis of the deposited data

Results flagged for a closer look

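Among 132 sets of 4 arrays (33 members in 4 groups), 6 held an array far from the other 3. Chance gives about 1 in 20, so this count is near what chance alone would give. Pdia4 read 929.2 in non-diabetic RBX mouse 2, with the nearest value of that group at 1506.8, and 686.4 in diabetic mouse 1, with the nearest at 1037.7. Xbp1 read 21151.7 in non-diabetic mouse 3, below a nearest value of 25725.3. Ppp1r15a read 3676.3 in non-diabetic RBX mouse 1, above a nearest value of 2133. Asns read 1876.6 in diabetic mouse 1, above 1094.9, and Edem1 7338.9 in diabetic mouse 4, above 5886.8. Diabetic mouse 1 and non-diabetic RBX mouse 2 gave the low Pdia4 values, and diabetic mouse 1 the high Asns value.

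The difference with RBX in Ddit3 was not the same in diabetic and non-diabetic mice, with an interaction of -0.84 on the log2 scale (limma, adjusted p = 0.0102). In this test 11.5% of all genes passed. It uses the non-diabetic RBX arrays with the raised control measures, and with log2 cre as a covariate Ddit3 did not pass (adjusted p = 0.111). Ddit3 was higher in all 4 non-diabetic RBX mice than in all 4 non-diabetic mice, and the diabetic groups overlapped.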

How the results depend on the processing

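Of 31 alternative settings (16 of them leaving out 1 array each), the sign of the members' log2 differences was kept in 967 of 988 values for RBX in diabetic mice, 914 of 956 for RBX in non-diabetic mice, 919 of 988 for diabetes without RBX, 917 of 956 for diabetes with RBX and 857 of 924 for the interaction. Many of these values could not change sign, since another variance model, filter or replicate block leaves a log2 difference as it is. The same holds when the array left out is outside the groups compared. The counts therefore overstate how far the signs were tested. Values below are those of RBX in non-diabetic mice unless named otherwise.

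With log2 cre as a covariate, 0 members passed for RBX in non-diabetic mice and 0 for the interaction, and the members' median difference was 0.30 for RBX in non-diabetic mice, 0.11 for diabetes without RBX, -0.33 for diabetes with RBX and -0.50 for the interaction. The signs that turned included Hspa5 (0.18), Pdia3 (0.22), Manf (0.30), Dnajb9 (0.12) and Herpud1 (0.085). With the Actb ratio as a covariate, 1 member passed and the median was 0.22, 4 passed for diabetes with RBX and 3 for the interaction, and the signs that turned included Hspa5 (0.25), Pdia3 (0.41), Manf (0.43) and Asns (-0.095). When the probe sets of each gene were averaged, the sign turned for Derl1 (-0.010) and Sel1l (-0.17), and 2 members passed for the interaction. For RBX in non-diabetic mice the covariate values extrapolate between groups that log2 cre and the Actb ratio separate. The cause of these changes of sign was not tested.

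With only the 2 groups compared, 4 members passed. Quantile normalization, centring on the 75th percentile and a filter at the 70th percentile each gave 2 for diabetes with RBX, and array weights gave 1 for diabetes without RBX. Without the 4 non-diabetic RBX arrays, chosen after seeing the data, 1 passed for RBX in diabetic mice. With 1 array left out the count was 2 (without non-diabetic mouse 2) to 10 (without non-diabetic mouse 3) for RBX in non-diabetic mice, and 0 (without non-diabetic RBX mouse 1) to 2 (without non-diabetic RBX mouse 4) for diabetes with RBX. It was 0 for the comparisons of RBX in diabetic mice and of diabetes without RBX, and 1 for the interaction. The replicate block gave 8 members for RBX in non-diabetic mice, adding Dnajb9 (adjusted p = 0.039), and no other count of members changed with it, while the share of all genes that passed for diabetes without RBX went from 0.652% to 1.67%. Of 4 arrays a comparison, 0 to 2 correlated best with the array of their own number. Each group has 4 arrays, and the dimmest members, Derl3, Trib3, Chac1 and Sdf2l1, have single values near or below the filter of 383, so small differences in them were not detectable.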
